A study of Mus musculus with 36 samples.

Results

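The 10 genes described here encode the core of the G1 cell cycle switch. They are the D cyclins Ccnd1, Ccnd2 and Ccnd3, the E cyclins Ccne1 and Ccne2, the p27 gene Cdkn1b, the INK4 inhibitor genes Cdkn2a, Cdkn2b and Cdkn2c, and the retinoblastoma gene Rb1. They were chosen by name, with earlier results of these data known. Each matched 1 of the 51734 gene symbols of the count table, and all 10 passed the filter on low counts that left 20511 genes for testing. mRNA was sequenced from E14 mouse embryonic stem cells (ESC) and neural precursor cells (NPC) made out of that line, in 3 genotypes with 3 libraries each, or 6 groups and 18 libraries. WT carried no edit named in the labels, dCD had catalytically inactive MLL3 and MLL4, and in MLL2dTAG a degron was attached to MLL2, a tag that lets the compound dTAG-13 send the protein for degradation. MLL2, MLL3 and MLL4 are methyltransferases of histone H3 lysine 4, encoded by Kmt2b, Kmt2c and Kmt2d, and the study asked how transcription depends on their activity in both cell types. All 6 groups, WT and dCD included, carried dTAG-13 as a treatment in the labels, so there was no group without the compound. The dose was 2 µM, given from day 1 of differentiation with harvest of NPC on day 4. NPC were also treated with RA, retinoic acid in this kind of differentiation, and the sources used here do not give how long ESC were exposed. Each genotype is a line of its own, so the edit and a difference between lines cannot be told apart. The labels do not say whether replicates were separate cultures, and p-values then measure only the spread between these libraries, which may be technical.

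In cells that enter the cycle, D cyclins bind the kinases CDK4 and CDK6 and start the phosphorylation of the retinoblastoma protein, which in its active form holds E2F transcription factors. E cyclins, with CDK2, complete that phosphorylation, and E2F then drives the genes of S phase. INK4 proteins bind CDK4 and CDK6 and block D cyclins, while p27 binds cyclin E and CDK2 complexes. Mouse embryonic stem cells are known for a short G1 with abundant cyclin E, and cyclin D2 is a known cyclin of neural precursors. The INK4 locus is a classical target of Polycomb repression, which is opposed by H3K4 methyltransferases.

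The libraries held between 19.4 and 46.0 M counts (M, mega) in total. Levels are given as CPM, the usual depth-scaled unit, here with TMM factors, as mean ± SD of 3 libraries, and changes as log2 fold changes with their standard error (SE). A gene was called at a Benjamini-Hochberg adjusted p under 0.05 in edgeR's quasi-likelihood test over all genes tested. The cell type labels were checked against marker lists. Summed over 7 pluripotency genes, the level was 3065 to 3718 CPM in ESC libraries and 38.1 to 39.0 in NPC WT, 65.7 to 73.8 in NPC dCD and 177 to 178 in NPC MLL2dTAG. Over 7 neural precursor genes it was 104 to 133 CPM in ESC and 265 to 476 in NPC. In WT NPC 6 of the 7 were called higher than in WT ESC, and Sox1 was not (−0.003, SE 0.15, edgeR adjusted p 0.987). Sox1 was at 2.82 to 3.26 CPM in NPC WT, below its mean in ESC dCD (9.15) and ESC MLL2dTAG (11.7). The neural sum thus does not speak for Sox1. Of these 7, Neurog2 was at 0 counts in ESC WT and ESC MLL2dTAG and Dcx in ESC MLL2dTAG. Over 5 endoderm genes it was 9.8 to 29.2 CPM in ESC, 203 to 211 in NPC WT, 175 to 183 in NPC dCD and 498 to 510 in NPC MLL2dTAG. All 5 were called higher in WT NPC than in WT ESC, where 39.1% of all genes tested were. In NPC MLL2dTAG the endoderm sum was above the neural precursor sum, which was 307 to 313 CPM there. Over 3 mesoderm genes it was 6.99 to 30.2 CPM in ESC and 0.223 to 1.99 in NPC, with Mesp1 at 0 in ESC dCD and NPC MLL2dTAG. Over 3 blood and endothelium genes it was 77.9 to 113 CPM in ESC and 1.5 to 7.59 in NPC, with Ptprc at 0 in NPC. The ESC WT sum was nearly all Pecam1 (111 CPM). Cdh5 went the other way, at 0.15 CPM in ESC WT, 0.92 in NPC WT and 4.52 in NPC MLL2dTAG. Kmt2b, Kmt2c and Kmt2d mRNA did not pass the test in dCD at either stage. In MLL2dTAG, Kmt2b was called higher in NPC (0.11, edgeR adjusted p 0.0406) and not called in ESC (−0.04), and Kmt2c was called higher at both stages (0.54 and 0.88) and Kmt2d in ESC (0.30). Still, mRNA is no check of these labels, since a degron removes protein and a catalytic mutant gene is still transcribed. In bulk samples, fewer cells of a type and less RNA per cell cannot be told apart.

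Cdkn2a and Cdkn2b lie side by side on the minus strand of mouse chromosome 4 (GRCm38.p6), at chr4:89274473-89294619 and chr4:89306289-89311032. Cdkn2a encodes p16INK4a and, from another start and reading frame, p19ARF, an activator of p53, and Cdkn2b encodes p15INK4b. The counts are per gene, so transcripts from the starts of Cdkn2a cannot be told apart. The starts are shown because Cdkn2a and Cdkn2b had the largest rises among the 10 genes in NPC of both edited lines. CpG pairs are marked because MLL2 is known to bind DNA rich in unmethylated CpG. Binding of MLL2 and methylation of CpG were not measured, and their part in these rises was not tested. Each line is the 250 bases before a start, 5′ to 3′ on the minus strand, taken from RefSeq sequence of GRCm38.p6, with CpG pairs in capitals. The windows are chr4:89294620-89294869 (Cdkn2a distal), chr4:89282193-89282442 (Cdkn2a proximal) and chr4:89311033-89311282 (Cdkn2b).
Cdkn2a distal start: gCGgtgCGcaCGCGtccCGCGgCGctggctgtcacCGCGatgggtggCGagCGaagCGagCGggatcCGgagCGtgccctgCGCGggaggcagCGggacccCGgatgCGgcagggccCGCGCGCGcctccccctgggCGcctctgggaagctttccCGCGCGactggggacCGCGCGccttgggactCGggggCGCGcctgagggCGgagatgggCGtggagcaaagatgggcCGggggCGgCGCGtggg
Cdkn2a proximal start: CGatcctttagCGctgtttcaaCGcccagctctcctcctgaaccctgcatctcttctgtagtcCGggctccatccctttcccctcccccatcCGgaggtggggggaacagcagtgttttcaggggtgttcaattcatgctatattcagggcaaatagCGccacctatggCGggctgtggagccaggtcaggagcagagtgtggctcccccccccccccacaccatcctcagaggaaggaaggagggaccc
Cdkn2b start: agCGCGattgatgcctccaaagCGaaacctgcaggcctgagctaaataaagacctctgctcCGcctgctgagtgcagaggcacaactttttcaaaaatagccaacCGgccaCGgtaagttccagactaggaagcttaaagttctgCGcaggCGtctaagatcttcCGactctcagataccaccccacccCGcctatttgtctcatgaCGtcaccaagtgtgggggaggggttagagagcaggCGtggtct

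The distal Cdkn2a window held 40 CpG pairs, a count reached by 1.31% of the 32851 RefSeq promoter windows of this length. The proximal window held 7 and the Cdkn2b window 12, beside a median of 6 over all windows. A motif for E2F (TTT, then 2 bases that are each C or G, then CGC), searched on both strands, was present in 1 of 9 windows found for 6 of the 10 genes (Ccnd3, Ccne1, Cdkn1b, Cdkn2a, Cdkn2b and Cdkn2c). That match was in the distal Cdkn2a window, 99 bases before the start, and 1.86% of all windows held the motif. The distal window had 78.4% GC, beside a median of 52.4% over all windows, so that share is not matched for base content. The matched stretch, chr4:89294691-89294738 on the minus strand, is printed with the motif in capitals.
Cdkn2a distal E2F motif: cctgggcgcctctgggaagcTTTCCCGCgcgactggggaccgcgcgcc
A match is a description of letters and no factor was measured here.

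In 3 of the 4 comparisons of an edited line with WT, most of the 10 genes rose. In ESC dCD, 7 rose and 2 fell against WT, where 25.7% of all genes tested rose and 22.6% fell. In ESC MLL2dTAG, 7 rose and 3 fell, against 28.7% and 28.2% of all genes. In NPC dCD, 8 rose and 1 fell, against 26.7% and 26.8%. In NPC MLL2dTAG, 5 rose and 1 fell, against 33.3% and 28.4%. So many genes were called in each direction that a called change is common here. The median log2 change of the 10 genes was 0.43, 0.72, 0.82 and 0.43 in these comparisons in order, and that of all genes tested was 0.02, −0.001, −0.02 and 0.03. The comparisons at 1 stage share their WT libraries, so their values are given side by side and are not independent of each other.

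**Figure D1:**
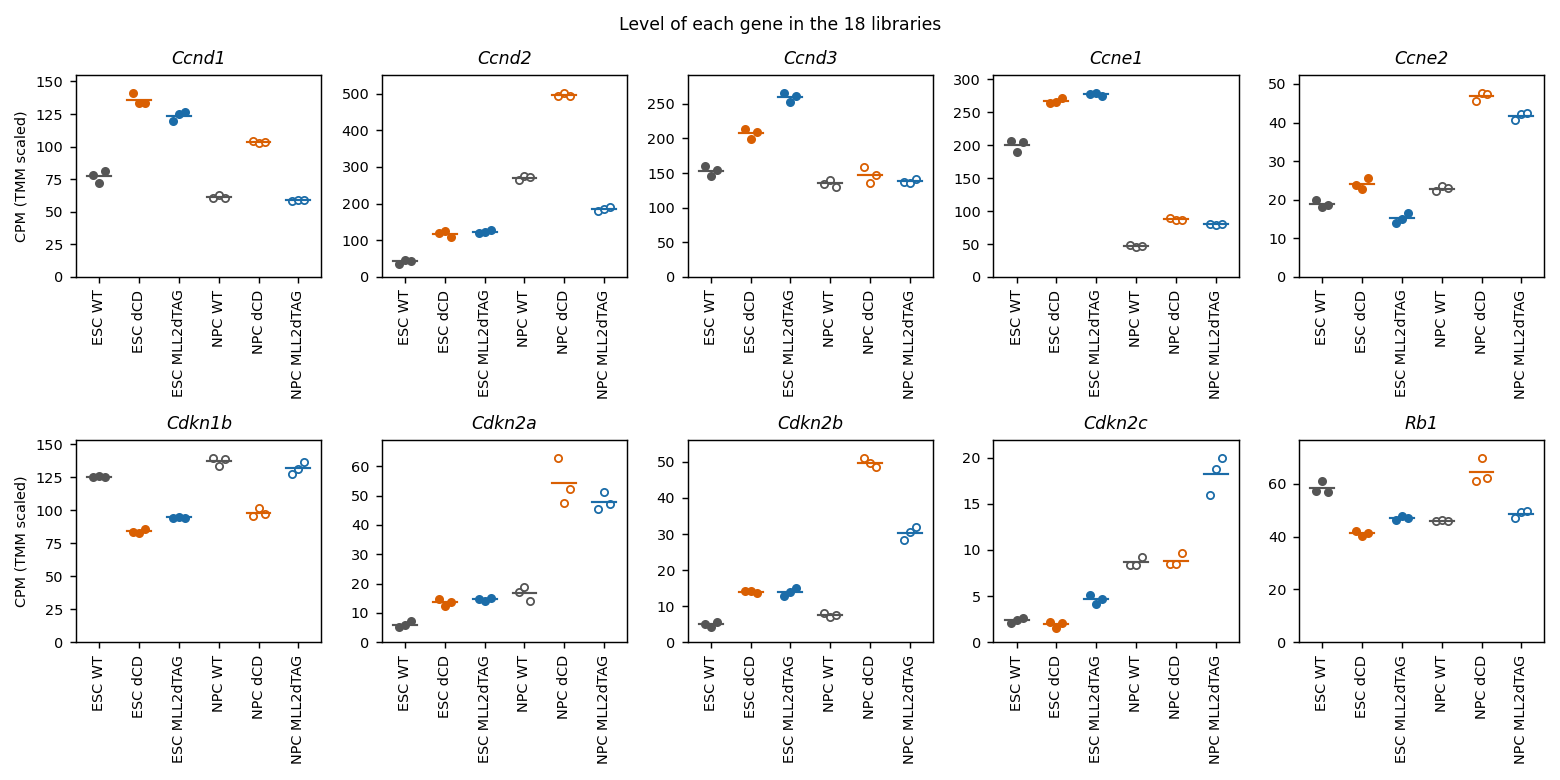
Level of each of the 10 genes in CPM (y axis, TMM scaled, starting at 0) in the 18 libraries by group. Points are libraries, filled for ESC and open for NPC, and bars are group means. Cdkn2a and Cdkn2b reach their highest levels in NPC dCD, and all WT libraries of either stage lie under those of both edited lines of that stage.

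Cdkn2b had the largest log2 change of the 10 genes in NPC of both edited lines. Its level was 5.16, 4.25 and 5.57 CPM in the ESC WT libraries, 14.1, 14.2 and 13.7 in ESC dCD and 12.9, 14 and 15.1 in ESC MLL2dTAG. All libraries of the edited lines were above all WT libraries, and the edited lines overlapped each other. The change on the log2 scale was 1.49 (SE 0.10) in dCD and 1.5 (SE 0.10) in MLL2dTAG, with adjusted p of 8.18e-15 and 9.46e-16 in edgeR's quasi-likelihood test. NPC libraries had 8.04, 7.11 and 7.65 CPM in WT, 51.0, 49.6 and 48.7 in dCD and 28.4, 30.5 and 31.9 in MLL2dTAG. The 3 NPC groups did not overlap, with dCD highest. Its log2 change was 2.71 (SE 0.08) in dCD, a 6.56-fold rise, and 2.00 (SE 0.08) in MLL2dTAG, a 3.99-fold rise, with edgeR adjusted p of 5.42e-26 and 2.90e-22.

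Cdkn2a, from the same locus, showed 5.32, 5.71 and 7.07 CPM in ESC WT, 14.8, 12.3 and 13.7 in ESC dCD and 14.7, 13.9 and 15.1 in ESC MLL2dTAG. Both edited lines were above WT in every library. The log2 change was 1.15 (SE 0.13) in dCD and 1.25 (SE 0.12) in MLL2dTAG. The NPC levels were 17.0, 18.8 and 14.1 CPM in WT, 62.7, 47.6 and 52.1 in dCD and 45.5, 51.2 and 47.1 in MLL2dTAG. The edited lines overlapped each other and stood above WT. The change on the log2 scale was 1.70 (SE 0.09) in dCD and 1.53 (SE 0.09) in MLL2dTAG, with edgeR adjusted p of 3.08e-18 and 3.26e-17.

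The flanking genes of the locus were Mtap, a methionine salvage enzyme (chr4:89137370-89181090), and Dmrta1, a gene of the DMRT transcription factor family (chr4:89688198-89694766). Mtap rose in each of the 4 comparisons by less than Cdkn2a and Cdkn2b, with log2 changes of 0.30 and 0.18 in ESC dCD and MLL2dTAG and 0.51 and 0.40 in NPC (SE 0.05 each). Dmrta1 was near its detection limit, with 6, 34 and 2 counts summed over the ESC WT, dCD and MLL2dTAG libraries and 18, 108 and 19 in the same groups as NPC. Its rise passed the test in dCD, with log2 changes of 2.49 (SE 0.78) in ESC and 2.57 (SE 0.57) in NPC. In ESC it was not called on leaving out ESC WT replicate 2 (1.83, adjusted p = 0.0577 with edgeR) or without ESC dCD replicate 3 (1.88, adjusted p = 0.0922 with edgeR).

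Markers of fibroblasts and mesenchyme, cells that are known to express the INK4 genes, rose in both edited ESC lines and in NPC dCD. In NPC MLL2dTAG most of them fell. Summed over 7 such markers, the level was 476 to 594 CPM in ESC WT, 756 to 848 in ESC dCD and 844 to 897 in ESC MLL2dTAG. As NPC, the levels were 648 to 665 CPM in WT, 849 to 937 in dCD and 899 to 910 in MLL2dTAG. All 7 were called higher in ESC dCD, ESC MLL2dTAG and NPC dCD, while 3 were called higher and 4 lower in NPC MLL2dTAG. None was at 0 in any group. Of all genes tested, 25.7%, 28.7% and 26.7% were called higher in those 3 comparisons, and 33.3% higher and 28.4% lower in NPC MLL2dTAG. The median change of the list in NPC MLL2dTAG was −0.64, with 4 genes lower, while Col3a1 rose (295 ± 9.98 CPM in WT and 716 ± 6.60 in MLL2dTAG). Their part in the rise of Cdkn2a and Cdkn2b was not tested.

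**Figure D2:**
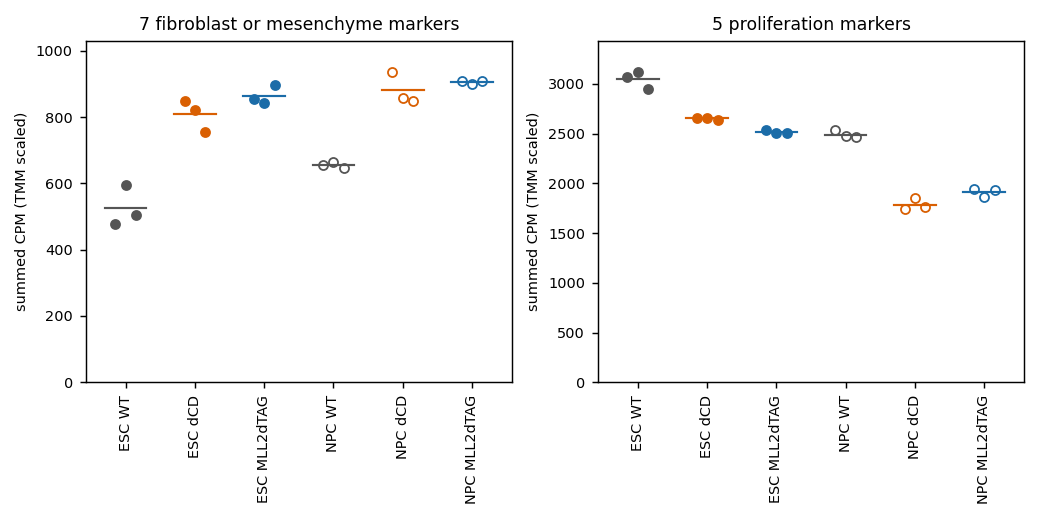
Summed CPM (y axis, from 0) of 7 fibroblast or mesenchyme markers (left) and 5 proliferation markers (right) in each library, with group means as bars. The mesenchyme sum is higher in both edited lines than in WT at each stage, although 4 of the 7 genes fell in NPC MLL2dTAG, and the proliferation sum is lower.

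Cdkn2c, which encodes p18INK4c and lies elsewhere on the same chromosome (chr4:109660876-109666756), rose in MLL2dTAG and did not pass the test in dCD. Its level was 2.13, 2.42 and 2.58 CPM in ESC WT, 2.22, 1.53 and 2.09 in ESC dCD and 5.13, 4.10 and 4.73 in ESC MLL2dTAG. In NPC it was 8.39, 8.41 and 9.19 CPM in WT, 8.44, 8.47 and 9.62 in dCD and 16.0, 18.8 and 19.9 in MLL2dTAG. At both stages MLL2dTAG stood apart from WT and dCD, which overlapped. The log2 change in MLL2dTAG was 0.95 (SE 0.15) in ESC and 1.07 (SE 0.10) in NPC, with edgeR adjusted p of 1.18e-06 and 8.08e-12. In dCD it was −0.30 (SE 0.18) in ESC and 0.03 (SE 0.11) in NPC, with edgeR adjusted p of 0.173 and 0.846. The direct comparison of the edited lines gave 1.25 (SE 0.16) in ESC and 1.05 (SE 0.10) in NPC, both higher in MLL2dTAG with edgeR adjusted p of 2.43e-08 and 2.12e-11.

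Cdkn1b moved the other way. This gene on chromosome 6 (chr6:134920401-134925525) encodes p27, the inhibitor of cyclin E and CDK2. Its level was 125, 126 and 126 CPM in ESC WT, 83.5, 82.8 and 85.6 in ESC dCD and 94.5, 95.2 and 94.3 in ESC MLL2dTAG. The 3 groups did not overlap, with dCD lowest. Its log2 change was −0.58 (SE 0.04) in dCD and −0.41 (SE 0.04) in MLL2dTAG, with edgeR adjusted p of 8.01e-15 and 1.21e-11. NPC libraries had 140, 134 and 139 CPM in WT, 95.3, 101 and 97.6 in dCD and 128, 131 and 137 in MLL2dTAG. It fell in dCD by 0.48 on the log2 scale (SE 0.04, edgeR adjusted p 8.97e-14), while in MLL2dTAG the libraries overlapped those of WT and the change of −0.06 (SE 0.04) did not pass the test. That last change was called under upper-quartile scaling (−0.15) and when only the groups compared were fitted (−0.11), and took the other sign with GC and length offsets (0.05, not called).

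The D cyclins rose in ESC of both edited lines. Ccnd2, on chromosome 6 (chr6:127125162-127152188, minus strand), was at 36.4, 47.0 and 43.5 CPM in ESC WT, 120, 127 and 109 in ESC dCD and 118, 122 and 129 in ESC MLL2dTAG. Both edited lines stood well above WT and overlapped each other. The log2 change was 1.47 (SE 0.06) in dCD and 1.53 (SE 0.06) in MLL2dTAG, rises of 2.77-fold and 2.88-fold (edgeR adjusted p 6.09e-21 and 1.62e-22). The NPC levels were 265, 275 and 272 CPM in WT, 494, 502 and 493 in dCD and 180, 185 and 190 in MLL2dTAG. WT lay between the edited lines, with no overlap. Ccnd2 thus rose in NPC dCD by 0.88 (SE 0.05, edgeR adjusted p 1.15e-17) and fell in NPC MLL2dTAG by 0.55 (SE 0.05, edgeR adjusted p 2.89e-12) on the log2 scale. The summed 7 neural precursor markers were at 265 to 270 CPM in NPC WT, 435 to 476 in NPC dCD and 307 to 313 in NPC MLL2dTAG. In NPC dCD 4 of the 7 were called higher and none lower, where 26.7% and 26.8% of all genes tested were. In NPC MLL2dTAG 4 were called higher and 3 lower, where 33.3% and 28.4% of all genes tested were. Among the 3 was Pax6 (38.9 ± 1.16 CPM in WT and 26.4 ± 0.892 in MLL2dTAG), while Nes rose (91.2 ± 1.08 and 156 ± 2.06 CPM). Their part in the changes of Ccnd2 was not tested.

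Ccnd1, the cyclin D1 gene on chromosome 7 (chr7:144929931-144939831, minus strand), was at 78.2, 71.8 and 81.2 CPM in ESC WT, 141, 134 and 133 in ESC dCD and 120, 125 and 126 in ESC MLL2dTAG. All 6 libraries of the edited lines were above those of WT. The change on the log2 scale was 0.82 (SE 0.04) in dCD and 0.68 (SE 0.04) in MLL2dTAG. As NPC, the levels were 60.5, 62.5 and 60.9 CPM in WT, 104, 102 and 104 in dCD and 58.1, 59.2 and 59.0 in MLL2dTAG. It rose in NPC dCD by 0.75 (SE 0.04) on the log2 scale, while in NPC MLL2dTAG the change of −0.06 (SE 0.04, edgeR adjusted p 0.224) did not pass the test, although the libraries did not overlap. That change was called lower under upper-quartile scaling (−0.15) and when only the groups compared were fitted (−0.11).

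Ccnd3, the cyclin D3 gene on chromosome 17 (chr17:47505051-47599689), was at 145 to 160 CPM in ESC WT, 199.7 to 214 in ESC dCD and 253 to 266 in ESC MLL2dTAG, with no overlap between groups. Its log2 change was 0.44 (SE 0.05) in dCD and 0.77 (SE 0.04) in MLL2dTAG, and the direct comparison put MLL2dTAG higher by 0.32 (SE 0.04, edgeR adjusted p 1.34e-07). In NPC the 3 groups overlapped, at 130 to 140, 135 to 159 and 136 to 142 CPM in WT, dCD and MLL2dTAG. The change in NPC dCD was called at 0.12 (SE 0.04, edgeR adjusted p 0.0212), but was lost without NPC WT replicate 1 (0.12, edgeR adjusted p 0.0535), NPC WT replicate 3 (0.09, edgeR adjusted p 0.12) or NPC dCD replicate 1 (0.06, edgeR adjusted p 0.283). In NPC MLL2dTAG the change was 0.04 (SE 0.04) and did not pass the test. It took the other sign under upper-quartile scaling (−0.06), without the filter (−0.0035) and with only the groups compared (−0.02), and was called with GC and length offsets (0.14).

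Both E cyclin genes rose in NPC of both edited lines. Ccne1, the cyclin E1 gene on chromosome 7 (chr7:38097984-38107490, minus strand), was at 206, 190 and 205 CPM in ESC WT, 265, 266 and 272 in ESC dCD and 278, 280 and 276 in ESC MLL2dTAG. The log2 change was 0.42 (SE 0.04) in dCD and 0.47 (SE 0.03) in MLL2dTAG. In NPC it was 48.5, 45.4 and 46.8 CPM in WT, 89.2, 86.2 and 87.2 in dCD and 80.5, 79.6 and 79.8 in MLL2dTAG. NPC of the edited lines lay above NPC WT and far below every ESC library. The log2 change in NPC was 0.90 (SE 0.04) in dCD and 0.77 (SE 0.04) in MLL2dTAG, with edgeR adjusted p of 1.68e-20 and 6.94e-19. The pluripotency sum, given above, was also higher in NPC of the edited lines than in NPC WT. All 7 of its genes were called higher in NPC MLL2dTAG but 3 of 7 in NPC dCD, where 33.3% and 26.7% of all genes tested were. Those 3 were Sox2 (14.4 ± 0.383 CPM in WT and 28.3 ± 2.66 in dCD), Klf4 (14 ± 0.798 and 26.6 ± 1.45 CPM) and Tdgf1 (1.51 ± 0.24 and 5.85 ± 0.59 CPM). Pou5f1, Nanog, Zfp42 and Esrrb did not pass the test in NPC dCD. The part of these genes in the rise of Ccne1 was not tested.

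Ccne2, the cyclin E2 gene on chromosome 4 (chr4:11190433-11204779), was at 19.9, 18.1 and 18.7 CPM in ESC WT, 23.9, 22.7 and 25.5 in ESC dCD and 14, 14.9 and 16.7 in ESC MLL2dTAG. WT lay between the edited lines with no overlap. It rose in ESC dCD by 0.36 (SE 0.07, edgeR adjusted p 4.27e-05) and fell in ESC MLL2dTAG by 0.30 (SE 0.07, edgeR adjusted p 0.00036) on the log2 scale. With GC and length offsets the rise was 0.24 and still called, and the fall was −0.10 and no longer called (edgeR adjusted p 0.272). NPC libraries had 22.2, 23.6 and 22.9 CPM in WT, 45.7, 47.7 and 47.5 in dCD and 40.6, 42.2 and 42.5 in MLL2dTAG. Both edited lines stood above WT, with log2 changes of 1.03 (SE 0.06) in dCD and 0.87 (SE 0.06) in MLL2dTAG (edgeR adjusted p 4.20e-17 and 3.03e-15).

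Rb1, on chromosome 14 (chr14:73192858-73325951, minus strand), turned between stages in dCD. Its level was 57.4, 61.1 and 57.0 CPM in ESC WT, 42.0, 40.3 and 41.4 in ESC dCD and 46.4, 47.7 and 47.2 in ESC MLL2dTAG. WT was highest in ESC, with no overlap. The change on the log2 scale was −0.51 (SE 0.05) in dCD and −0.31 (SE 0.05) in MLL2dTAG (edgeR adjusted p 2.98e-10 and 1.28e-06), the second −0.19 with GC and length offsets and still called. The NPC levels were 46.1, 46.3 and 45.9 CPM in WT, 61.0, 69.8 and 62.4 in dCD and 47.0, 49.4 and 49.8 in MLL2dTAG. It rose in NPC dCD by 0.48 (SE 0.05, edgeR adjusted p 8.96e-11), and the change of 0.08 (SE 0.05, edgeR adjusted p 0.15) in NPC MLL2dTAG did not pass the test. That last change was called with GC and length offsets (0.21) and took the other sign under upper-quartile scaling (−0.010).

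**Figure D3:**
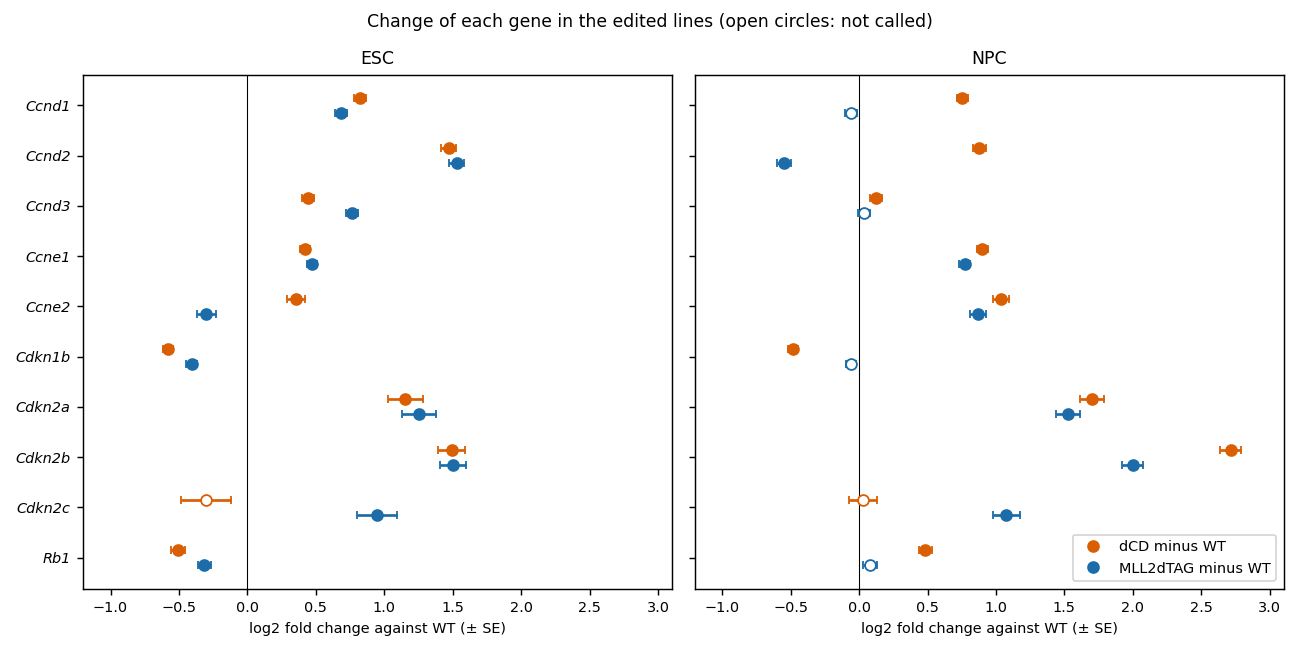
Log2 fold change against WT (x axis) of the 10 genes in ESC (left) and NPC (right), with dCD in orange, MLL2dTAG in blue, bars of 1 SE and open circles where the change was not called. In ESC the direct difference between the lines is largest for Cdkn2c (1.25) and in NPC for Ccnd2 (−1.42), followed by Cdkn2c (1.05), Ccnd1 (−0.81) and Cdkn2b (−0.72).

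In WT cells, the switch from ESC to NPC moved all 10 genes past the threshold, 6 higher and 4 lower, where 39.1% and 40.4% of all genes tested rose and fell. The largest rise was in Ccnd2, at 2.66 on the log2 scale (SE 0.06), from 42.3 ± 5.41 to 271 ± 5.22 CPM. The largest fall was in Ccne1, at −2.09 (SE 0.04), from 200.3 ± 8.74 to 46.9 ± 1.59 CPM. Cdkn2c rose by 1.85 (SE 0.14), Cdkn2a by 1.44 (SE 0.12) and Cdkn2b by 0.61 (SE 0.10). Rb1 fell by 0.35 and Ccnd1 by 0.33. Small changes depended on the processing. The rise of Cdkn1b (0.13, SE 0.04) was lost under upper-quartile scaling (0.05, edgeR adjusted p 0.252) and became a called fall with GC and length offsets (−0.28). The rise of Ccne2 (0.28, SE 0.07) was lost with those offsets (0.15, edgeR adjusted p 0.0595), and the fall of Ccnd3 (−0.18, SE 0.05) was lost without the filter on low counts (−0.08, edgeR adjusted p 0.136), where the median change of all genes tested moved by 0.101. The offsets took the fall of Rb1 to −0.76 and the rise of Cdkn2b to 0.92.

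Per kilobase of the longest GENCODE M21 transcript, Ccne1 had the highest level of the 10 genes in ESC WT, at 100.1 CPM per kilobase, followed by Ccnd3 (39.7), Cdkn1b (27.6) and Ccnd1 (20.6). Cdkn2c was lowest at 0.962. In NPC WT the order was led by Ccnd2 (42.7 CPM per kilobase), Ccnd3 (35.0), Cdkn1b (30.2) and Ccne1 (23.5). Among the cyclins of the 10 genes, the leading mRNA per length was therefore cyclin E1 in WT ESC and cyclin D2 in WT NPC. Other cyclins were not ranked, and this is a comparison of levels with no test.

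Over the 6 groups, the order of levels differed between genes. For Ccnd1 it ran from NPC MLL2dTAG through NPC WT, ESC WT, NPC dCD and ESC MLL2dTAG to ESC dCD, and no neighbours overlapped. Ccnd2 was lowest in ESC WT and highest in NPC dCD, and ESC dCD and ESC MLL2dTAG overlapped. For Ccne1 all 6 groups were apart, from NPC WT to ESC MLL2dTAG. For Cdkn2a the order was ESC WT, ESC dCD, ESC MLL2dTAG, NPC WT, NPC MLL2dTAG and NPC dCD, in which ESC dCD overlapped ESC MLL2dTAG, ESC MLL2dTAG overlapped NPC WT, and NPC MLL2dTAG overlapped NPC dCD. Cdkn2b in WT NPC lay below Cdkn2b in ESC of either edited line.

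The change in an edited line was then compared between stages, as the change in NPC minus that in ESC. In dCD 7 of the 10 genes passed this test, where 42.9% of all genes tested did. Cdkn2b rose more in NPC (difference 1.22, SE 0.13, edgeR adjusted p 8.85e-10), as did Ccne2 (0.68, SE 0.09), Ccne1 (0.48, SE 0.05) and Cdkn2a (0.55, SE 0.16). Leaving out ESC WT replicate 3 ended the call for Cdkn2a (0.41, edgeR adjusted p 0.0629). Rb1, which fell in ESC and rose in NPC, gave the second-largest difference (0.99, SE 0.07). Ccnd2 (−0.59, SE 0.07) and Ccnd3 (−0.32, SE 0.06) rose less in NPC.

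In MLL2dTAG 8 of the 10 genes passed, where 49.0% of all genes tested did. The differences were negative for the 3 D cyclins, at −2.08 (SE 0.07, edgeR adjusted p 1.5e-22) for Ccnd2, −0.74 (SE 0.06) for Ccnd1 and −0.73 (SE 0.06) for Ccnd3. They were positive for Ccne2 (1.17, SE 0.09), Cdkn2b (0.50, SE 0.13), Rb1 (0.39, SE 0.07), Cdkn1b (0.35, SE 0.05) and Ccne1 (0.30, SE 0.05). Those of Cdkn2a (0.27, SE 0.15) and Cdkn2c (0.13, SE 0.18) did not pass, and that of Cdkn2a was called without NPC WT replicate 2 (0.37, edgeR adjusted p 0.0488).

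Compared directly, the edited lines differed in 6 of the 10 genes in ESC, where 47.2% of all genes tested were called, and in 8 in NPC, where 55.9% were. In ESC the differences were at most 0.66 in size outside Cdkn2c, with MLL2dTAG higher in Ccnd3, Cdkn1b (0.17), Cdkn2c and Rb1 (0.19) and lower in Ccne2 (−0.66, SE 0.07) and Ccnd1 (−0.14, SE 0.04). The Ccnd1 difference was lost without the filter (−0.10), and with GC and length offsets (−0.03). Those offsets took the differences to 0.45 for Rb1, 0.42 for Cdkn1b and −0.34 for Ccne2, and Ccnd2 (0.21) and Ccne1 (0.16) were then also called, so that 6 genes were higher and 1 lower. In NPC, MLL2dTAG was lower than dCD in Ccnd2 (−1.42, SE 0.05), Ccnd1 (−0.81, SE 0.04), Cdkn2b (−0.72, SE 0.06), Rb1 (−0.40, SE 0.05), Ccne2 (−0.17, SE 0.06) and Ccne1 (−0.13, SE 0.04). It was higher in Cdkn2c and Cdkn1b (0.43, SE 0.04). The Ccne2 difference was lost without NPC MLL2dTAG replicate 1 (−0.15, edgeR adjusted p 0.0529) and took the other sign, uncalled, with GC and length offsets (0.08). Ccnd3 (−0.09, SE 0.04, edgeR adjusted p 0.0995) and Cdkn2a (−0.17, SE 0.08, edgeR adjusted p 0.0642) did not pass. Both were called lower under median-ratio scaling (−0.10 for Ccnd3 and −0.19 for Cdkn2a), under upper-quartile scaling (−0.17 and −0.26), without the filter (−0.15 and −0.23), with only the groups compared (−0.14 and −0.23) and without NPC dCD replicate 2 (−0.14 and −0.26). Cdkn2a was also called lower with halved counts (−0.16) and without NPC MLL2dTAG replicate 2 (−0.22), and Ccnd3 took the other sign with GC and length offsets (0.012, not called). The number of the 10 genes called lower here was thus 5 to 8 over the alternatives.

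The kinases that pair with D cyclins also moved. Cdk4 rose in ESC dCD and ESC MLL2dTAG by 0.36 each (SE 0.04), from 377 ± 26.4 CPM to 484 ± 19.5 and 484 ± 8.29. In NPC the level was 589 ± 5.05, 595 ± 10.3 and 636 ± 8.01 CPM in WT, dCD and MLL2dTAG, and the change in MLL2dTAG (0.11, SE 0.04) was lost under upper-quartile scaling (0.02) and without the filter (0.07). Cdk6 was at 41.7 ± 1.34 CPM in WT ESC, 50.6 ± 2.25 in the dCD line and 30.6 ± 1.09 in MLL2dTAG, so that it rose in dCD (0.28, SE 0.05) and fell in MLL2dTAG (−0.45, SE 0.05). In NPC it rose from 53.6 ± 0.728 CPM to 104 ± 1.57 in dCD (0.95, SE 0.04) and 85.6 ± 2.67 in MLL2dTAG (0.67, SE 0.04). Over the 7 G1 kinases and their activators, 4, 2, 1 and 5 rose and 3, 4, 3 and 1 fell in ESC dCD, ESC MLL2dTAG, NPC dCD and NPC MLL2dTAG, with medians of 0.14, −0.13, −0.07 and 0.11. Of all genes tested, 25.7%, 28.7%, 26.7% and 33.3% rose and 22.6%, 28.2%, 26.8% and 28.4% fell in these comparisons.

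Of the 3 other inhibitor genes, Cdkn1a, the p21 gene and a target of p53, was at 90.5 ± 2.65 CPM in WT NPC, 205 ± 8.23 in the dCD line and 107 ± 1.01 in MLL2dTAG. It rose by 1.18 (SE 0.04) in NPC dCD and by 0.25 (SE 0.04) in NPC MLL2dTAG on the log2 scale. In ESC it was 104 ± 4.02, 97.6 ± 4.63 and 104 ± 2.52 CPM in WT, dCD and MLL2dTAG, and no change passed the test. Cdkn1c, the p57 gene, rose between WT stages from 7.23 ± 0.527 to 89.3 ± 1.93 CPM (3.63, SE 0.06). It fell in NPC MLL2dTAG to 13.7 ± 0.166 CPM (−2.71, SE 0.05) and was 94.9 ± 3.17 CPM in NPC dCD. It also fell in ESC, by 0.59 in dCD and by 1.61 in MLL2dTAG.

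Of 12 other pocket protein, E2F and DP genes, 5, 4, 2 and 4 rose and 6, 6, 3 and 5 fell in the 4 comparisons in the order given above, with medians between −0.10 and 0.01. Of all genes tested, 25.7%, 28.7%, 26.7% and 33.3% rose and 22.6%, 28.2%, 26.8% and 28.4% fell. E2f2 rose in ESC MLL2dTAG (1.00, SE 0.06), E2f3 rose in ESC dCD (0.61, SE 0.05) and Rbl2, the p130 gene, fell there (−0.64, SE 0.07). Tfdp2, a partner of E2F, fell in NPC dCD (−1.08, SE 0.03) and NPC MLL2dTAG (−0.55, SE 0.03). Of 12 S-phase genes that E2F is known to drive, 2, 1, 2 and 7 rose and 2, 7, 7 and 2 fell, with medians of 0.02, −0.12, −0.17 and 0.10. Cdt1, which licenses replication origins, fell in NPC dCD from 101 ± 5.90 to 50.1 ± 4.20 CPM (−1.01, SE 0.05) and in NPC MLL2dTAG (−0.46, SE 0.05), while Cdc6, which loads the same helicase, rose there (0.27 and 0.60, SE 0.05 each). Between WT stages all 12 S-phase genes fell, where 40.4% of all genes tested fell. Their median was −0.92 and the largest fall was in Mcm5 (−1.31, SE 0.03). E2f1 fell by 1.35 while E2f6, a repressor, rose by 1.48.

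The 5 proliferation markers fell together in NPC dCD, where all 5 were called lower and the median change was −0.48. Their summed level was 2464 to 2532 CPM in NPC WT, 1739 to 1848 in NPC dCD and 1866 to 1947 in NPC MLL2dTAG, and 2948 to 3122, 2640 to 2662 and 2502 to 2541 CPM in the same genotypes as ESC. Of all genes tested, 22.6%, 28.2%, 26.8% and 28.4% fell in ESC dCD, ESC MLL2dTAG, NPC dCD and NPC MLL2dTAG. In NPC MLL2dTAG 4 of the 5 markers fell and 1 rose, in ESC dCD 3 fell and 1 rose, and in ESC MLL2dTAG 4 fell and 1 rose. Mki67, the gene of the Ki-67 antigen, was the lowest in both MLL2dTAG comparisons (−0.43 in ESC and −0.55 in NPC), and Aurkb in NPC dCD (−0.61, SE 0.04). The part of proliferation in the changes of the 10 genes was not tested.

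Of 9 genes known to control the INK4 locus or D cyclins, 5, 5, 4 and 7 rose and 3, 2, 4 and 2 fell in the 4 comparisons. Of all genes tested, 25.7%, 28.7%, 26.7% and 33.3% rose and 22.6%, 28.2%, 26.8% and 28.4% fell. Among the 9 genes Myc, an activator of Ccnd2, led the rises in each comparison. It was at 8.72 ± 0.433 CPM in WT ESC, against 36.1 ± 1.43 in the dCD line and 46.7 ± 0.627 in MLL2dTAG, with log2 changes of 2.06 (SE 0.07) and 2.43 (SE 0.07). In NPC it rose from 9.48 ± 0.213 CPM to 22.8 ± 1.2 in dCD (1.27) and 21.0 ± 1.14 in MLL2dTAG (1.15). Ccnd2 fell in NPC MLL2dTAG (−0.55), and the part of Myc in the changes of Ccnd2 was not tested. Mycn fell in NPC dCD by 1.21 (SE 0.04), from 101 ± 2.01 to 43.6 ± 3.35 CPM. Of 5 genes for the turnover of cyclins and p27, 2, 1, 2 and 2 rose and 0, 0, 3 and 1 fell. Fbxw7, the ubiquitin ligase subunit for cyclin E, led the rises in ESC, by 0.59 in dCD and 0.71 in MLL2dTAG (SE 0.05 each).

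**Figure D4:**
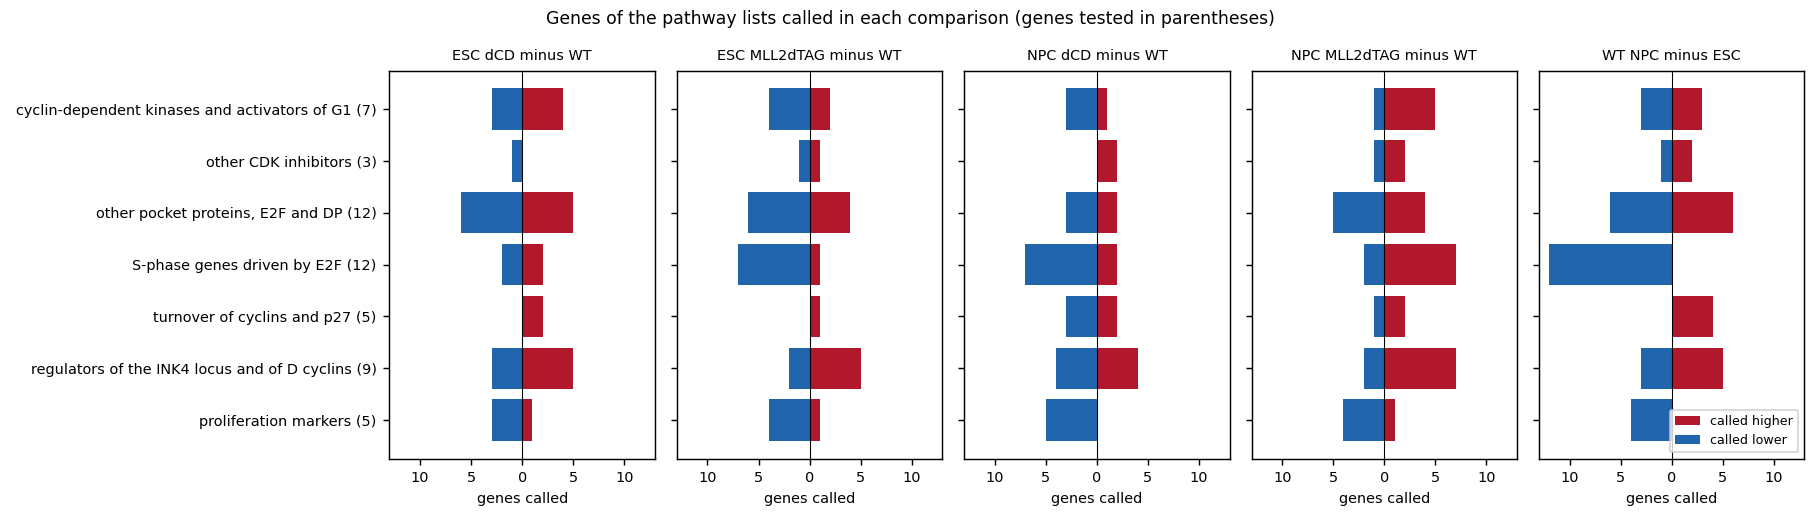
Number of genes called higher (red, to the right) and lower (blue, to the left) in 7 lists around the G1 switch, in each of 5 comparisons, with the number tested in parentheses. The 12 S-phase genes all fell from WT ESC to WT NPC, where 40.4% of all genes tested fell. All 5 proliferation markers fell in NPC dCD, where 26.8% of all genes tested did.

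For each of the 10 genes the most alike genes were found by Pearson correlation of log2 CPM over the 18 libraries, which share their groups, among 11795 genes whose mean was 5 CPM or more. For Ccnd2 these were Wnt5a (r = 0.99) and Synpo (0.988), for Ccnd1 Cd44 (0.97) and Inhba (0.962) and for Ccnd3 1700030C10Rik (0.973) and Bmp4 (0.968). For Ccne1 they were Abcf2 (0.997) and Nup93 (0.996), and 1452 genes had r above 0.9. For Ccne2 they were Endod1 (0.991) and Cdk6 (0.984), the kinase described above. For Cdkn2a they were Qsox1 and Pigk (0.986 each), for Cdkn2b Arpc2 (0.979) and Tmed7 (0.978), for Cdkn2c Cdc42bpb (0.985) and Pdgfra (0.984), and for Cdkn1b Appl2 (0.968) and Pias1 (0.959). Rb1 had the fewest alike genes, 2 above 0.9, Cep170b (0.92) and Elavl3 (0.913). Ranked by Spearman correlation, the first gene was the same for 2 of the 10 genes, Ccnd1 and Ccne2. These are descriptions with no test.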

How the data were processed

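mRNA was measured in 18 libraries, 6 groups of 3. The values the authors deposited are counts of reads for each gene symbol and are not normalized. Per the submitters' processing notes HTSeq was named for these libraries. Per the labels' protocols the TruSeq Stranded mRNA kit was used. Not given in the sources used here were the aligner, genome build and strand setting, so reads of overlapping or antisense genes and of close copies cannot be told apart. All 37 mitochondrial genes were at 0. Low counts were more often even than odd (60.8% to 66.5% of counts from 1 to 10), so halved counts were tried. Columns were matched to samples by name, 18 columns of per-sample values were not used, and the other 18 samples were not analysed here.

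The analysis used R 4.3.3 and edgeR 4.0.16: filterByExpr by group, TMM factors (0.967 to 1.05), 1 mean per group over all 18 libraries (12 residual degrees of freedom) and two-sided quasi-likelihood F tests with Benjamini-Hochberg adjustment over 20511 genes. The script was tested on simulated data. Nothing else in the labels marks a batch. The 10 genes, the lists and the markers were chosen with earlier results of these data known. Of each list, the called genes with the highest and the lowest change and a mean of at least 5 CPM could be named, plus Cdk4, Cdk6, Cdkn1a, Mtap and Dmrta1, and 2 alike genes for each of the 10; marker genes with values were named after these were seen. Positions and promoters are from RefSeq (GRCm38.p6), and length and GC content, for 96.0% of genes tested, from GENCODE M21. Replicate pairs differed by 2.19 to 10.5 chi-square units per degree of freedom, and all libraries were kept as replicates. Alternatives used limma 3.58.1 (voom) and DESeq2 1.42.0. Counts of reads are not independent molecules.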

Additional observations from a re-analysis of the deposited data

Results flagged for a closer look

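The change against WT differed between ESC and NPC, by the test of the difference itself (edgeR's interaction term, NPC minus ESC, on the log2 scale), in 15 of 20 tests of the 10 genes. In dCD the differences were −0.59 for Ccnd2, −0.32 for Ccnd3, 0.48 for Ccne1, 0.68 for Ccne2, 0.55 for Cdkn2a, 1.22 for Cdkn2b and 0.99 for Rb1. In MLL2dTAG they were −0.74 for Ccnd1, −2.08 for Ccnd2, −0.73 for Ccnd3, 0.30 for Ccne1, 1.17 for Ccne2, 0.35 for Cdkn1b, 0.50 for Cdkn2b and 0.39 for Rb1. Ccnd2 and Ccne2 in MLL2dTAG and Rb1 in dCD were called in opposite directions at the 2 stages. These differences share the same libraries with the comparisons they are made from, and 42.9% (dCD) and 49.0% (MLL2dTAG) of all genes tested were called in the same way.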

How the results depend on the processing

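Calls and changes were recomputed under 9 other settings and with each library of the groups compared left out in turn, and levels in CPM under other scalings only. Of the 90 changes of the 10 genes, 70 kept their direction and their side of the threshold under every setting run for them, as did 41 of 44 changes of other named genes. The exceptions were mostly small changes, and the cause was not tested. Under upper-quartile scaling and with only the groups compared, 3 of the 10 genes instead of 1 were called lower in NPC MLL2dTAG. Without the filter and with GC and length offsets, 1 instead of 2 was lower in ESC MLL2dTAG than in ESC dCD. In NPC MLL2dTAG against WT the sign turned for Ccnd3 under upper-quartile scaling (−0.0555), without the filter (−0.0035) and with only the groups compared (−0.0151), for Rb1 under upper-quartile scaling (−0.010) and for Cdkn1b with the offsets (0.0528). Between WT stages it turned for Cdkn1b (−0.28) and Cdk6 (−0.47, from 0.36) with the offsets. For MLL2dTAG minus dCD it turned in ESC for Ccne1 under upper-quartile scaling (−0.00090) and for Cdkn2b under that scaling (−0.0453) and with only the groups compared (−0.0071), and in NPC for Ccnd3 (0.012) and Ccne2 (0.078) with the offsets. Leaving out 1 library gave −0.00020 to 0.11 for Ccnd2 and −0.059 to 0.0609 for Cdkn2b in ESC MLL2dTAG minus dCD, and −0.0348 to 0.0736 for Cdkn2c in NPC dCD. Levels in CPM moved by at most 7.18% with other scalings, and 96 of 120 stayed within 1 SD. No pairing of samples by replicate number was seen. The correlation of deviations was −0.0257 to 0.0239 over 45 same-numbered pairs, and 2 of 18 libraries correlated best with their own number. All genes tested had equal weight, those with low counts included, so a weak shared effect could be missed. The replicate block changed no call, with 8 genes higher and 1 lower in NPC dCD in both fits. Depth limits Dmrta1, with 2 to 108 counts a group.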
